A study of Drosophila melanogaster with 40 samples.

Results

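The transcripts described here ranked low, relative to other transcripts, for polysomal against free mRNA in 3 settings. These were wild-type embryos, *smaug*-mutant embryos and *smaug*-mutant lysate treated with cycloheximide. The transcripts are 150 of the 6524 measured. A translation index (TI) was taken for each transcript and gradient by averaging its log2 level over pools 3 and 4, the deep part of the gradient where polysomes collect, and subtracting that of pool 1, the top of the gradient. Transcripts whose mean level over all 40 arrays reached the 25th percentile were kept, which left 4893. The members were the 150 kept transcripts whose mean TI ranked lowest when the highest of its 3 percentile ranks was taken, over 3 wild-type, 3 *smaug*-mutant and 2 cycloheximide gradients. All 150 therefore passed the filter on low levels, and their low TI in those 8 gradients is how they were chosen, not a finding. Puromycin gradients and pool 2 of every gradient played no part in the choice beyond the filter, and the ratio of pool 4 to pool 3 entered it only through the mean of the pools.

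An mRNA that carries several ribosomes sediments deep in a sucrose gradient, whereas an mRNA held in a free ribonucleoprotein particle stays near the top. The early fly embryo lives on maternal mRNAs, many of which are stored or repressed until needed, and Smaug binds some of them, blocks their translation and promotes their decay. Puromycin enters the growing peptide and releases the ribosome from the mRNA, while cycloheximide freezes ribosomes in place.

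Embryos were collected 0 to 2 h after egg laying, at 25 degrees, laid either by w1118 mothers, the wild type, or by smaug1 homozygotes. There were 3 gradients of each genotype, labelled biological replicates, and the lysis buffer of both already held cycloheximide. For the drug gradients *smaug*-mutant embryos were lysed without it, each of 2 lysates was split between puromycin and cycloheximide and then warmed, and no wild-type lysate was treated. The cycloheximide gradients thus share their genotype with the *smaug* mutant and their lysate with puromycin. Each gradient was divided into 4 pools and each pool was hybridised to 1 array in 1 dye, giving 10 gradients. Array medians ranged from 9.98 to 14.1 on the log2 scale and correlations between replicate arrays across transcripts from 0.51 to 0.96, and the number of arrays limits the precision. *smaug*-mutant replicate 3 stood apart, with a median TI over all transcripts of 1.77, the highest of the 10 gradients. The table carries transcript identifiers without gene names. The gene table used here matched 13 identifiers to 1 gene and 22 to several, and 0 of them were members, so members are named by identifier, their functions are not described, no sequence is shown, and the level of *smaug* itself is not analysed here.

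In wild type the median TI of the members was -1.96, -2.63 and -1.97 in replicates 1, 2 and 3, where that of kept transcripts was 0.13, -0.88 and -0.38. In the *smaug* mutant it was -2.16, -2.54 and -0.88 against -0.49, -0.04 and 1.92, and with cycloheximide -1.48 and -1.99 against 0.62 and -0.61. The difference of the members from kept transcripts ran from -2.80 to -1.38 in these gradients, and in *smaug*-mutant replicate 3 both medians were the highest of the 8. All 150 had a TI below 0 in 7 of the 8 gradients, and 124 did in *smaug*-mutant replicate 3. The group that set the highest rank, and so decided membership, was wild type for 57 members, the *smaug* mutant for 43 and cycloheximide for 50. The threshold fell at a percentile of 9.85, a value shared by the last transcript inside and the first outside. That last member had mean TIs of -1.83 in wild type, -1.09 in the *smaug* mutant and -1.44 with cycloheximide, and the first transcript outside had -1.81, -1.25 and -1.23, so the edge of the list is a cut through a continuous range.

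**Figure D1:**
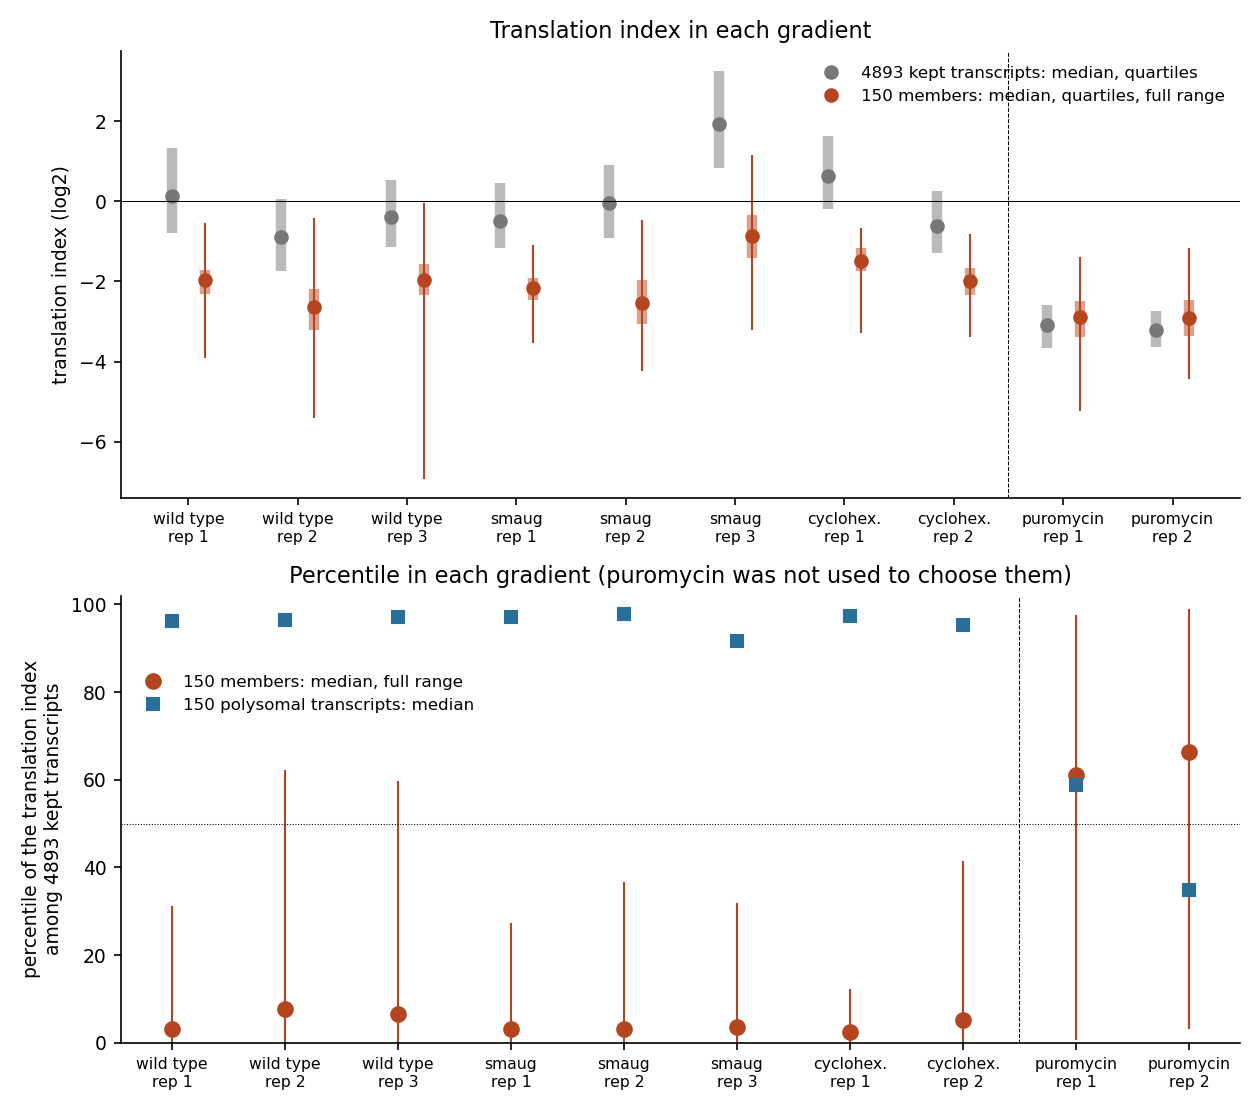
The upper panel plots the TI (log2) in each of the 10 gradients, with the median and quartiles of the 4893 kept transcripts in grey and the median, quartiles and full range of the 150 members in red. The lower panel plots the percentile of the TI among kept transcripts, with the members' median and full range in red and the median of 150 polysomal transcripts in blue. Gradients left of the dashed line chose both lists, and in the puromycin gradients to its right the members' medians rise to percentiles of 61.1 and 66.2.

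The share of a transcript's summed linear level found in each pool shows where the members were. Pool 1 held a median of 54.0%, 63.1% and 51.9% of a member in the wild-type gradients, 56.1%, 49.9% and 35.5% in the *smaug* mutant, and 43.8% and 53.0% with cycloheximide. For kept transcripts the pool 1 share ran from 9.63% to 39.3% over the same gradients. Pool 1 was the fullest pool for 110 to 150 of the 150 members in each gradient, with the fewest in *smaug*-mutant replicate 3. It was also the fullest for 7.17% to 56.9% of kept transcripts, lowest in *smaug*-mutant replicate 3 and highest in wild-type replicate 2. Pools 3 and 4 together still held a median of 19.2% to 40.1% of a member, and 47.0% to 75.0% of a kept transcript. These shares follow from the choice. Pool 2, which the TI leaves out, held 12.4% to 25.5% of a member and 9.68% to 23.1% of a kept transcript, and the order of the medians was not the same in every gradient. The members' pool 2 share was lower than that of kept transcripts in *smaug*-mutant replicate 1, at 16.9% against 19.2%. It was also lower in wild-type replicate 3, at 19.7% against 19.9%, and higher in the other 6. A share is divided by the sum over the 4 pools, so the choice bears on it too. Their median pool 2 level was lower in those gradients and also in *smaug*-mutant replicates 2 and 3, at 12.12 against 12.52 and 11.57 against 11.62.

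**Figure D2:**
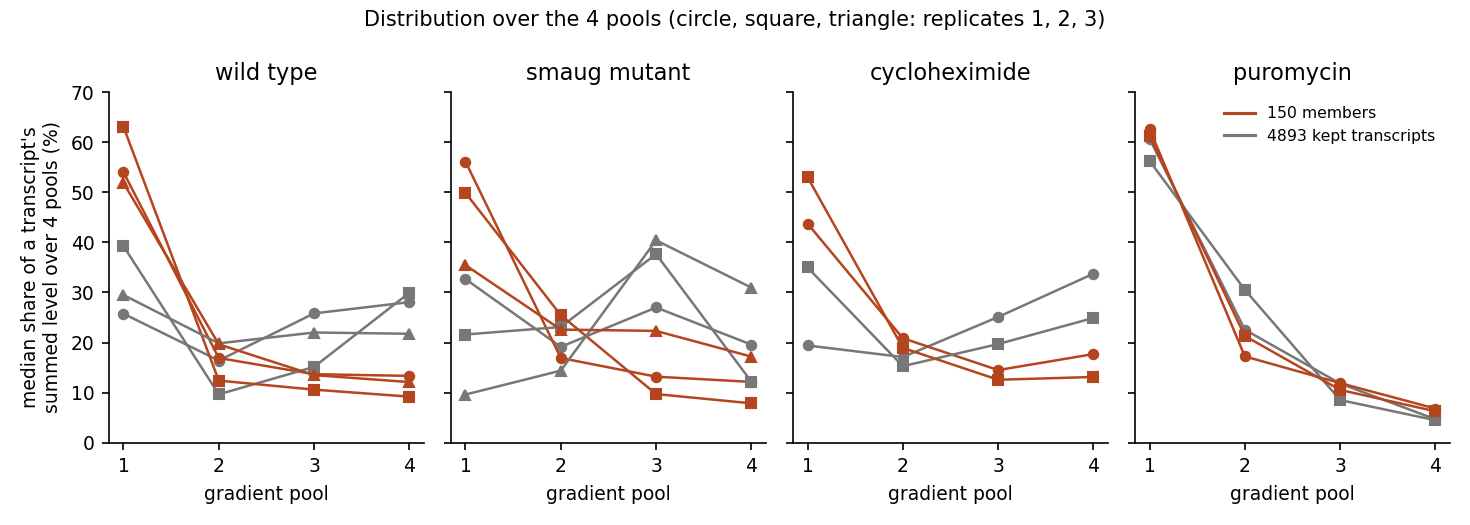
The median share (%) of a transcript's summed linear level found in each of the 4 pools is plotted for the 150 members in red and the 4893 kept transcripts in grey, with 1 line per gradient. In wild type, the *smaug* mutant and cycloheximide the members' medians are highest in pool 1. In *smaug*-mutant replicate 3 they run only from 35.5% in pool 1 to 17.2% in pool 4. With puromycin their pool 1 shares of 62.6% and 61.2% lie close to the 60.7% and 56.3% of kept transcripts.

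The list was repeated with each of the 8 gradients left out in turn, and the left-out gradient was then read. The repeated lists shared 111 to 143 transcripts with the members. In the left-out gradient 78 to 142 of the 150 lay at or below the 10th percentile, where 10% of kept transcripts do by definition, with the fewest in wild-type replicate 2 and the most in cycloheximide replicate 1. The median percentile in the left-out gradient was 9.30 in wild-type replicate 2, 8.37 in wild-type replicate 3 and between 3.12 and 6.05 in the other 6. The low TI was thus also read in gradients that had not been used to choose it, with wild-type replicates 2 and 3 the least extreme. The spread of a member between replicates, as a median SD, was 0.61 in wild type, 0.96 in the *smaug* mutant and 0.40 with cycloheximide, and for kept transcripts it was 0.74, 1.30 and 0.78. With the median of every gradient set to 0 first, it was 0.50, 0.72 and 0.52 for members and 0.62, 0.60 and 0.39 for kept transcripts, so the order turned in the *smaug* mutant and with cycloheximide.

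FBtr0085594 and FBtr0071360 had the lowest maximum rank, a percentile of 0.143 each. FBtr0085594 had a TI of -2.74, -4.74 and -3.27 in wild type, -2.55, -4.21 and -1.86 in the *smaug* mutant, and -3.25 and -2.20 with cycloheximide. FBtr0071360 had a TI of -2.63, -4.21 and -2.33 in wild type, -2.60, -3.59 and -2.15 in the *smaug* mutant, and -2.56 and -3.37 with cycloheximide. Both were lowest in wild-type replicate 2, and in neither transcript did any of these gradients reach a TI of -1. With puromycin, FBtr0085594 had a TI of -3.66 and -3.30, at percentiles of 24.7 and 43.7. FBtr0071360 had a TI of -3.39 and -3.70 with puromycin, at percentiles of 35.2 and 21.8. The transcripts at the extreme of the list were therefore below the middle of all kept transcripts with puromycin, but far from its lowest end.

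FBtr0088248 and FBtr0072791 were the members with the highest mean TI with puromycin, picked on that value. FBtr0088248 had a TI of -3.89, -2.51 and -2.20 in wild type, -3.50, -2.67 and -3.18 in the *smaug* mutant, -1.51 and -1.13 with cycloheximide, and -1.41 and -1.18 with puromycin. Its puromycin and cycloheximide gradients lay together above all 6 of the wild type and the *smaug* mutant. Its change between the drugs was 0.02, which is a description. Its cycloheximide TI had helped to choose it and its puromycin TI had picked it out. The TI of FBtr0072791 was -2.33 and -1.16 with cycloheximide and -1.75 and -2.12 with puromycin, so its drug groups overlapped. FBtr0072791 had -2.44, -3.21 and -2.40 in wild type and -2.52, -3.23 and -1.34 in the *smaug* mutant.

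**Figure D3:**
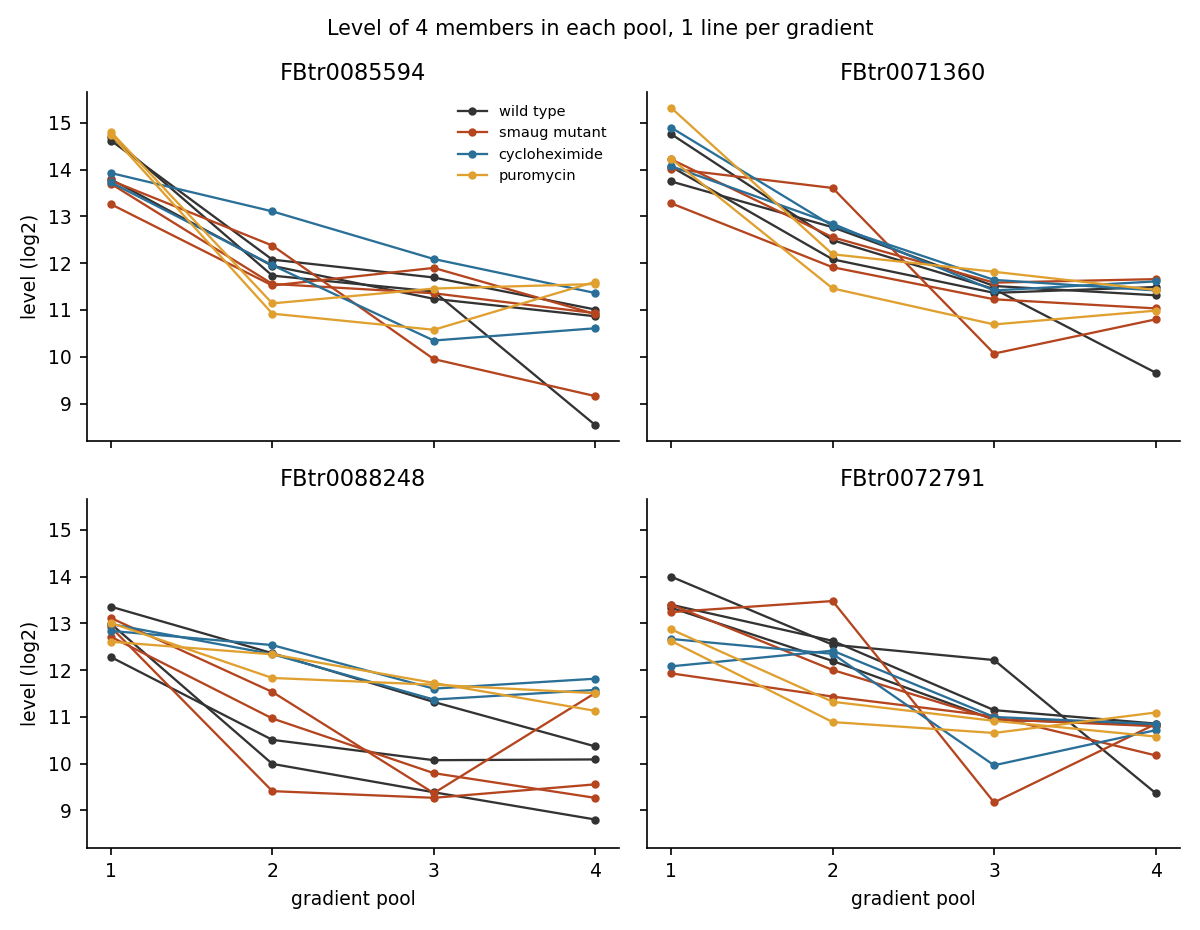
Levels (log2) of 4 members are plotted over the 4 pools, with 1 line per gradient coloured by group. FBtr0085594 and FBtr0071360, with the lowest maximum rank, are highest in pool 1 in all 10 gradients, whereas for FBtr0088248 the cycloheximide and puromycin lines run together.

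With puromycin, which was not used in the choice, the members were no longer at the bottom of the range. In puromycin replicates 1 and 2 their median TI was -2.88 and -2.91, where kept transcripts had -3.09 and -3.20, and their median percentile was 61.1 and 66.2. Of the 150, 96 and 99 lay above the 50th percentile, 9 and 23 above the 90th, and 9 and 7 at or below the 10th. Over both gradients the mean TI of single members ran from -4.56 to -1.30. In pool 1 with puromycin the members' median level was 13.5 and 13.8, below the 13.9 and 14.5 of kept transcripts. In pool 3 it was 11.2 and 11.5 against 11.6 and 11.8, and in pool 4 10.43 and 10.72 against 10.37 and 10.91. The higher TI thus went with a lower pool 1, as pool 3 was lower too and pool 4 was higher in replicate 1 alone. The TI of the members with puromycin was also lower than it had been with cycloheximide, so their rise in rank came with a fall in value that was smaller than that of other transcripts. For scale, the 150 transcripts with the highest minimum rank, called polysomal here, went from median percentiles of 97.4 and 95.3 with cycloheximide to 58.9 and 34.9 with puromycin.

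The members were of lower mean level than other kept transcripts, with a median of 11.8 against 12.3 on the log2 scale and 75 of 150 at or below the 25th percentile of kept transcripts. Level depends on the probes as well as on the mRNA. The members were therefore also set beside kept transcripts in 3 ranges of mean level that each held 50 members. The highest range had no upper limit, so its members reached 13.2 whereas its kept transcripts reached 14.7. Only the lowest and middle ranges thus set members beside kept transcripts of like level. With puromycin the median percentiles of members and of those kept transcripts were 61.8 and 55.6 in the lowest range for replicate 1, and 75.8 and 64.8 for replicate 2. In the middle range they were 62.6 and 56.6, and 72.3 and 61.2. In the highest range they were 58.9 and 47.4, and 46.1 and 42.3. The members were higher in all 6 of these readings, by 0.06 to 0.22 on the log2 TI scale. Both ends of that span came from the highest range, where levels were not matched. In the lowest and middle ranges the difference ran from 0.12 to 0.21. The kept transcripts of like level were themselves above the 50th percentile in the lowest and middle ranges.

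Between puromycin and cycloheximide, limma called the TI lower in 80.3% of the 6524 transcripts and higher in 0.0153% (adjusted p under 0.05). Since the cycloheximide TI helped to choose the members, the count was made in the 150 transcripts that the same rule gave from wild type and the *smaug* mutant alone, of which 119 are members. Their median TI was -1.38 and -1.86 with cycloheximide and -2.87 and -2.84 with puromycin. This list was itself low with cycloheximide, at median percentiles of 3.06 and 7.30, so the count is not free of a choice for low TI. Limma called 37 of the 150 lower and 0 higher. Their change was below 0 in 147 and above 0 in 3, beside 4886 and 7 of the 4893 kept transcripts. The median change was -1.29 where it was -3.14 in kept transcripts, and 148 of the 150 lay above that kept median. Whether this smaller fall came from the low start was not tested. In lysate 1 the median was -1.48 in this list and -3.73 in kept transcripts, and in lysate 2 the kept median was -2.50, with 146 of the 150 above it. The members themselves changed by a median of -1.15, from -2.69 to 0.09, which is a description.

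The direction of those calls depended on the scale. With the median of every gradient set to 0, 28 of the 150 were called higher and 0 lower, where 2.48% of all transcripts were called higher and 7.48% lower, so that relative to the other transcripts of the gradient the calls ran the opposite way. Without puromycin replicate 1 the test called 0 of the 150 lower beside 2546 of all 6524, without puromycin replicate 2 it called 2 beside 2495, and without cycloheximide replicate 2 it called 87 beside 6067.

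Pool by pool, the members gained less at the top of the gradient and lost less at the bottom than other transcripts did. In pool 1 the median change between cycloheximide and puromycin was 0.40 for members and 1.38 for kept transcripts. In pool 3 it was -0.24 and -0.87, and in pool 4 -1.15 and -2.49. Arrays of pools 1, 3 and 4 with cycloheximide entered the choice, so these values are descriptions. In the polysomal transcripts the same changes were 3.61 in pool 1 and -3.59 in pool 4.

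**Figure D4:**
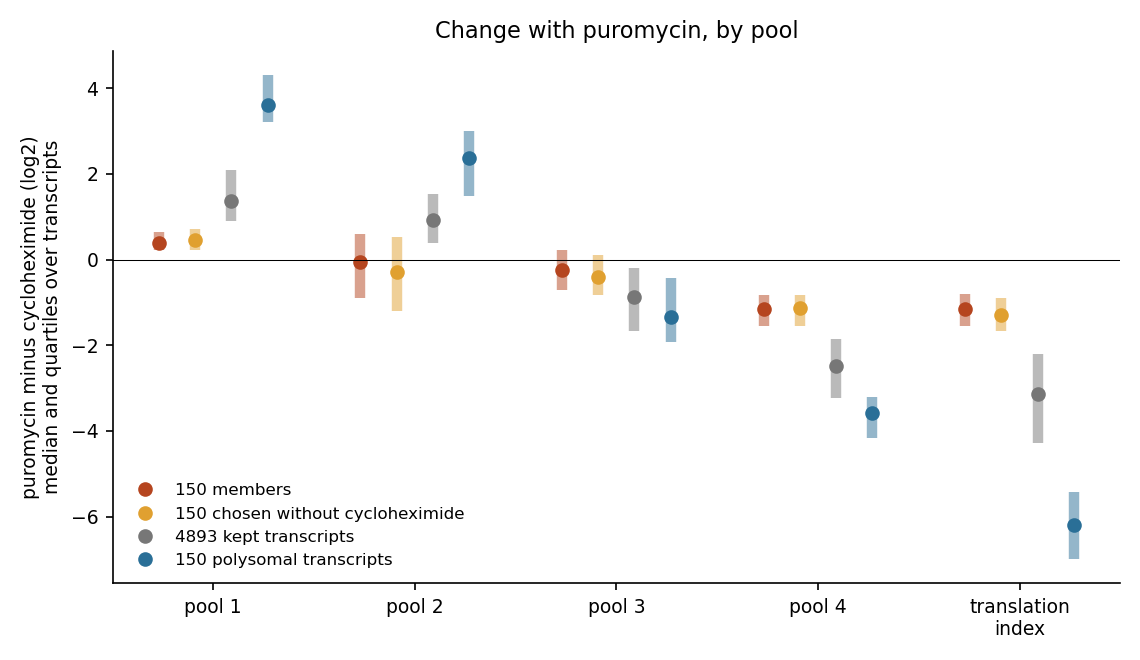
The change between cycloheximide and puromycin (log2, puromycin minus cycloheximide) is plotted for each pool and for the TI as the median and quartiles over transcripts, for the 150 members, the 150 transcripts chosen without cycloheximide, the 4893 kept transcripts and the 150 polysomal transcripts. The members' medians lie nearer to 0 than those of kept transcripts in all 4 pools, and in the TI they stand at -1.15 against -3.14 in kept transcripts and -6.19 in polysomal ones.

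Pool 2 lies between the free and the polysomal part and holds a mixture of translated and repressed mRNA. The members' median level there was 12.2 and 12.4 on the log2 scale with cycloheximide and 11.8 and 12.3 with puromycin. Over the same arrays kept transcripts went from 12.1 and 12.2 to 12.5 and 13.6. The change of the members had a median of -0.06, with 72 above 0 and 78 below, whereas kept transcripts changed by 0.92. With pool 2 fitted alone, limma called 1 of the 150 members higher and 22 lower, beside 1536 and 287 of all transcripts. In the model over 4 pools, limma called 22 of the 150 members lower and 0 higher, where 4.66% of all transcripts were lower and 15.3% higher. With each array centred on its median, 65 members were lower and 0 higher, where 15.3% of all transcripts were lower and 13.8% higher. Under neither scaling of this model was a member called higher. Without puromycin replicate 1 the test called 19 members higher and 17 lower, beside 2469 and 248 of all transcripts, and with either cycloheximide gradient left out it called 0 transcripts in all.

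The pool 4 to pool 3 ratio compares the heaviest part of the gradient with the part above it. Its log2 value in the members had medians of 0.30 and 0.01 with cycloheximide and -0.77 and -0.67 with puromycin, and in kept transcripts 0.36 and 0.31 against -1.34 and -0.91. Limma called the ratio lower in 50 of 150 members and higher in 2, where 52.0% of all transcripts were called lower and 0.736% higher (adjusted p under 0.05). The median change was -0.94 in members and -1.51 in kept transcripts. With each gradient's ratio centred on its median 20 members were called higher and 0 lower, where 12.0% of all transcripts were higher and 14.0% lower, so the direction again depended on the scale. With the shared lysate as a replicate block 20 members were called lower and 0 higher, beside 2601 and 9 of all transcripts. With either cycloheximide gradient left out 0 transcripts in all were called. Without puromycin replicate 1 it was 85 members lower and 3 higher, beside 4453 and 164 of all, and without replicate 2 it was 88 and 7, beside 5049 and 182.

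The 2 members whose ratio was called higher, FBtr0085596 and FBtr0085592, were picked out after their values were seen. FBtr0085596 had a log2 ratio of -0.76 and -0.71 with cycloheximide and 0.71 and 0.16 with puromycin, a change of 1.17 (SE 0.31, limma adjusted p = 0.0416). FBtr0085592 had -1.01 and -0.73 with cycloheximide and 0.09 and 0.03 with puromycin, a change of 0.93 (SE 0.26, limma adjusted p = 0.0474). Their puromycin gradients lay above the cycloheximide ones, and with the replicate block neither was called. FBtr0085594, the first transcript of the whole list, has an identifier number between these, and its ratio, with a change of 0.79 in the same direction, was not called (SE 0.54, limma adjusted p = 0.259). Over the whole list 3 pairs of members had consecutive identifier numbers, with correlations over the 40 arrays of 0.75 to 0.94 where the median pair of members had 0.75, and no pair had identical values.

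Between genotypes the members showed no call in the measures the rule had left free. In pool 2 their median level was 11.6, 11.3 and 12.1 in wild type and 11.6, 12.1 and 11.6 in the *smaug* mutant, ranges that overlap, and their median change was 0.08 beside 0.10 in kept transcripts. Limma called 0 of the 150 in either direction, where 0% of all transcripts were higher and 0.0153% lower, and at an unadjusted p under 0.05 there were 5 members higher and 0 lower, beside 1.16% and 0.582% of all transcripts. The log2 ratio of pool 4 to pool 3 had member medians of -0.07, -0.27 and -0.11 in wild type and -0.11, -0.39 and -0.42 in the *smaug* mutant, and kept medians of 0.09, 0.95 and 0.00 against -0.43, -1.56 and -0.42. The members changed by a median of -0.11 and kept transcripts by -1.14, and 0 members were called, with 0% of all transcripts called in each direction. At an unadjusted p under 0.05 the ratio was lower in 10 members and higher in 0, beside 35.6% and 0.041% of kept transcripts. With the ratio of every gradient centred, the members' median change was 0.90 and that of all transcripts 0.004, so this direction too depended on the scale. After adjustment 0 members and 0 of all transcripts were called on that scale. The kept medians lay farthest from 0 in wild-type replicate 2 and *smaug*-mutant replicate 2, at 0.95 and -1.56.

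For the TI itself, the genotypes were compared in the 150 kept transcripts with the lowest mean TI with cycloheximide, a choice that used neither genotype's own gradients and shared 78 transcripts with the members. Their median TI was -1.67, -2.47 and -1.65 in wild type and -1.96, -2.25 and -0.46 in the *smaug* mutant. The low TI with cycloheximide was also seen in the 6 gradients of the wild type and the *smaug* mutant, at median percentiles of 4.67 to 11.5, although cycloheximide was in their lysis buffer too and the *smaug*-mutant gradients share their genotype with the cycloheximide ones. The median change between genotypes was 0.33 in this list and 0.73 in kept transcripts, within the spread between *smaug*-mutant gradients. Limma called 0 of the 150, with 0.0460% of all transcripts called higher and 0.0153% lower, and 0 of the 150 had an unadjusted p under 0.05, beside 10.8% of all transcripts higher and 0.199% lower. Without *smaug*-mutant replicate 3 the median change of the list was -0.20.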

How the data were processed

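The deposited values were log2 levels, 1 per transcript and array. The authors hybridised each pool to a NimbleGen array, normalised by the quantile step of RMA, and applied to each array a linear transformation fitted on Arabidopsis spike-in RNA. The log base was taken from RMA. Versions and genome build are not given in the sources used here. A spike-in error moves every transcript of an array together, and offsets leave ranks within a gradient unchanged, but slopes do not.

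TIs, pool 4 to pool 3 ratios and pool 2 levels were compared with limma 3.58.1 in R 4.3.3, adjusted by Benjamini-Hochberg over 6524 transcripts at 0.05, and the fits were tested on simulated data. Pool 2 was fitted with the other pools, sharing their spread, which counts the 4 pools of a gradient as independent. Shares were taken on the linear scale. The members, lists and tests were chosen with earlier results of these data known. Named members were those with the lowest maximum rank, those with the highest TI with puromycin, and called members where 5 or fewer were called. Lists of gene functions had been planned and were void for want of gene names. Puromycin and cycloheximide gradients of the same number share a lysate, per the study's methods (correlation of deviations 0.46). Alternatives varied the scaling, filter, block, dye, moderation, TI formula and gradients used.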

Additional observations from a re-analysis of the deposited data

How the results depend on the processing

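The comparisons between genotypes called 0 members or list transcripts under every alternative run for them, the replicate block included. Few of all transcripts were called in these fits either. The ratio had 0 under every alternative, and pool 2 at most 2 higher and 5 lower, with quantile normalisation within pools. The TI had at most 131 higher and 4 lower, with the replicate block. The 0 is thus near the share of all transcripts. The sources used here do not say whether wild-type and *smaug*-mutant gradients of the same number are paired. Their correlations of deviations, 0.26, 0.45 and -0.05, do not settle it. Between the drugs the counts moved. The TI calls, 37 lower, became 28 higher with centring, 74 higher with quantile normalisation within pools (all transcripts 514 higher, 642 lower), 65 lower with trend and robust moderation (5540 lower), 14 lower with dye as a covariate (4805 lower) and 41 lower with the replicate block (5585 lower), and ran from 0 to 87 when 1 gradient was left out. The pool 4 to pool 3 calls, 50 lower and 2 higher, became 20 higher with centring, 47 higher and 6 lower, 53 together, with quantile normalisation within pools (all transcripts 1517 and 1411), 81 with trend and robust moderation (122 higher, 3865 lower), 27 with dye (12 and 2404) and 20 with the replicate block (9 and 2601), and ran from 0 to 95. The pool 2 calls, 22, all lower, became 65 with centring, 62 with quantile normalisation within pools (all transcripts 902 lower), 9 with dye (138) and 26 with the replicate block (337), and ran from 0 to 36, the last with 19 higher. The cause of these shifts was not tested, and where 1 gradient of a drug was left, it was assumed to vary like the other group.

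Choosing the members in another way kept 58 of 150 without the filter, 55 with a filter at the 50th percentile and 92 with pools 1 and 2 as the free level, and 107 to 143 under the other alternatives. For the filters this follows from the change in which transcripts could be chosen. Chosen after seeing the data, the members' mean of the 2 median puromycin percentiles, 63.7, was reread under these choices. It was 50.7 without the filter, 56.2 with pools 1 and 2, 58.8 with pool 4 alone and 68.6 with pool 3 alone, and 61.6 to 66.6 when 1 gradient was left out.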
